A study of Mus musculus
Mus spretus with 18 samples.

Results

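The splicing regulators Rbfox1, Rbfox2, Rbfox3, Mbnl1 and Mbnl2 were followed through the levels of their own mRNAs and the inclusion of their own exons. They were taken by gene symbol, and are 5 of 38924 genes with expression values. Their skipped exon (SE) events are 97 of the 125200 in the tables and describe 45 different exons, namely 11 of Rbfox1, 12 of Rbfox2, 7 of Rbfox3, 8 of Mbnl1 and 7 of Mbnl2. RNA-seq was performed on F1 hybrids of a C57BL/6J mother (BL6 allele) and a SPRET/EiJ father (SPR allele), with 2 libraries in each of 9 groups, 18 in all. Cerebral cortex, heart, kidney, lung and spleen came untreated from the same 2 female animals aged 8 weeks. Liver data, also of 8 weeks, had been obtained from these animals in previous work, and their labels read C57BL/7J and C57BL/8J for the maternal strain. Embryonic stem cells (ESC) were 2 independent clones derived from such hybrids, with no age given. Fibroblasts derived from the F1 hybrid were kept for 4 h with 0.1 µM pladienolide B, which inhibits the SF3B complex of the spliceosome, or with its solvent DMSO, whose labels carry the same concentration and time. The sources used here do not say whether the 2 fibroblast libraries of a condition were separate cultures, so the spread between them may be technical. The p-values for fibroblasts do not rest on that spread alone. For mRNA levels the spread was estimated over all groups, and for exon inclusion it was shared among events.

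Rbfox proteins bind the sequence UGCAUG in introns next to alternative exons, and a site after an exon usually promotes its inclusion while a site before it usually favours skipping. Rbfox1 acts in brain, heart and skeletal muscle, Rbfox2 is expressed broadly, and Rbfox3 is the neuronal nuclear antigen NeuN. Muscleblind-like (Mbnl) proteins drive the change from fetal to adult splicing patterns in many tissues, and their sequestration by expanded CUG repeats is a cause of myotonic dystrophy. Both families regulate the splicing of their own transcripts, so that some alternative exons of these genes are known targets of their own products.

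Junction reads over SE events ranged from 46558287 to 151755602 per library, with 48.3% to 53.8% of the reads assigned to an allele on BL6. In each tissue and in ESC the marker genes of the labelled cell type summed to a higher level, in TPM (transcripts relative to the sum of each library), than in every other group, for example 3606 to 3953 TPM for the neuronal list in cortex against at most 183 TPM elsewhere, while fibroblast markers reached 1481 to 1538 TPM in DMSO-treated fibroblasts and up to 1086 TPM in cortex. The ESC clones stood apart from each other in the level of Mbnl2 and in the allele its reads came from, so levels and switch scores whose call or size changed without ESC are given both ways, while pairs of tissues in PSI were tested with all libraries.

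Rbfox1, on chromosome 16 (5884793-7412480, GRCm38), was most abundant in cortex, with 243.5 and 245.0 TPM. Heart was next with 27.7 and 27.9 TPM, and lung reached 1.32 and 1.27 TPM. The other tissues stayed at or below 1 TPM, with 0.965 and 0.814 TPM in kidney, 0.376 and 0.291 TPM in spleen, 0.186 and 0.339 TPM in ESC and 0.0195 and 0.0111 TPM in liver. Cortex lay 3.13 ± 0.20 (SE) above heart on the log2(TPM + 0.1) scale, and heart 4.32 above lung (limma, adjusted p = 2.65e-08 and 3.24e-09). Spleen and ESC overlapped and did not pass the test (adjusted p = 0.222), while lung and kidney were separated just below the threshold of 0.05 (adjusted p = 0.0496). All these values are from whole tissue, in which fewer cells of a type and less RNA per cell cannot be told apart.

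Rbfox3, on chromosome 11 (118489760-118911597), had 110.4 and 123.6 TPM in cortex. Every other library was at or below 1.19 TPM, with 0.984 and 1.19 TPM in lung, 0.992 and 0.984 TPM in spleen, 0.207 and 0.417 TPM in kidney, 0.134 and 0.164 TPM in liver, 0.118 and 0.0838 TPM in ESC and 0.0138 and 0.0142 TPM in heart. Cortex thus exceeded lung, the next tissue, by 6.63 ± 0.22 (SE) on the log2 scale (limma, adjusted p = 8.24e-11), whereas lung and spleen (adjusted p = 0.675) and liver and ESC (adjusted p = 0.208) did not differ beyond their spread. The low value in heart separates Rbfox3 from Rbfox1, which was higher in heart than in any tissue but cortex.

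Rbfox2, on chromosome 15 (77078990-77308434), was found in every group. Its level was 129 and 137 TPM in cortex, 71.7 and 54.6 TPM in ESC, 58.8 and 56.3 TPM in heart, and 38.0 and 34.9 TPM in lung. Lower values were measured in kidney (14.1 and 14.2 TPM), liver (12.4 and 12.3 TPM) and spleen (8.32 and 7.37 TPM). From cortex to spleen the log2 difference was 4.07 ± 0.11 (SE), and all steps in this order passed the test except ESC to heart (adjusted p = 0.330), where the libraries overlapped, and kidney to liver (adjusted p = 0.133, or 0.0185 without the ESC clones).

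Mbnl1, on chromosome 3 (60472559-60629750), was highest in spleen with 153 TPM in both libraries. It followed in lung with 74.6 TPM in both, in cortex with 57.3 and 56.7 TPM, in heart with 36.2 and 41.7 TPM, in kidney with 29.5 and 38.2 TPM, and in liver with 29.4 and 27.8 TPM. ESC had the lowest level, 11.8 and 7.29 TPM. Spleen lay 1.04 ± 0.18 (SE) above lung on the log2 scale (limma, adjusted p = 2.61e-04) and ESC 1.61 below liver (adjusted p = 2.83e-06), but lung and cortex (adjusted p = 0.0669), heart and kidney (adjusted p = 0.341) and kidney and liver (adjusted p = 0.261) did not pass the test. Without the ESC clones lung and cortex passed it (adjusted p = 0.00406), and the other two pairs did not (adjusted p = 0.0854 and 0.0522). DMSO-treated fibroblasts held more Mbnl1 mRNA than any tissue, at 304.8 and 312.6 TPM.

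Mbnl2, on chromosome 14 (120275652-120431698), was led by cortex with 169.9 and 172.8 TPM. Heart (78.7 and 84.0 TPM) and lung (71.4 and 74.9 TPM) came next, then kidney (51.9 and 51.3 TPM), spleen (27.9 and 29.7 TPM) and liver (17.3 and 18.5 TPM). The ESC clones held 97.4 and 14.3 TPM, a range that holds the levels of every organ except cortex. Because the spread is estimated per gene over all groups, this raised the SE of each Mbnl2 difference to 0.58, and no neighbours in the order passed the test (adjusted p = 0.115 to 0.862). Without the ESC clones the SE was 0.05, every step passed, and the smallest, heart over lung, was 0.15 on the log2 scale (adjusted p = 0.0202). Cortex over liver, the widest gap between organs, was 3.25 on the log2 scale, with an adjusted p over all tissues of 0.00300 with ESC and 1.81e-12 without.

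**Figure D1:**
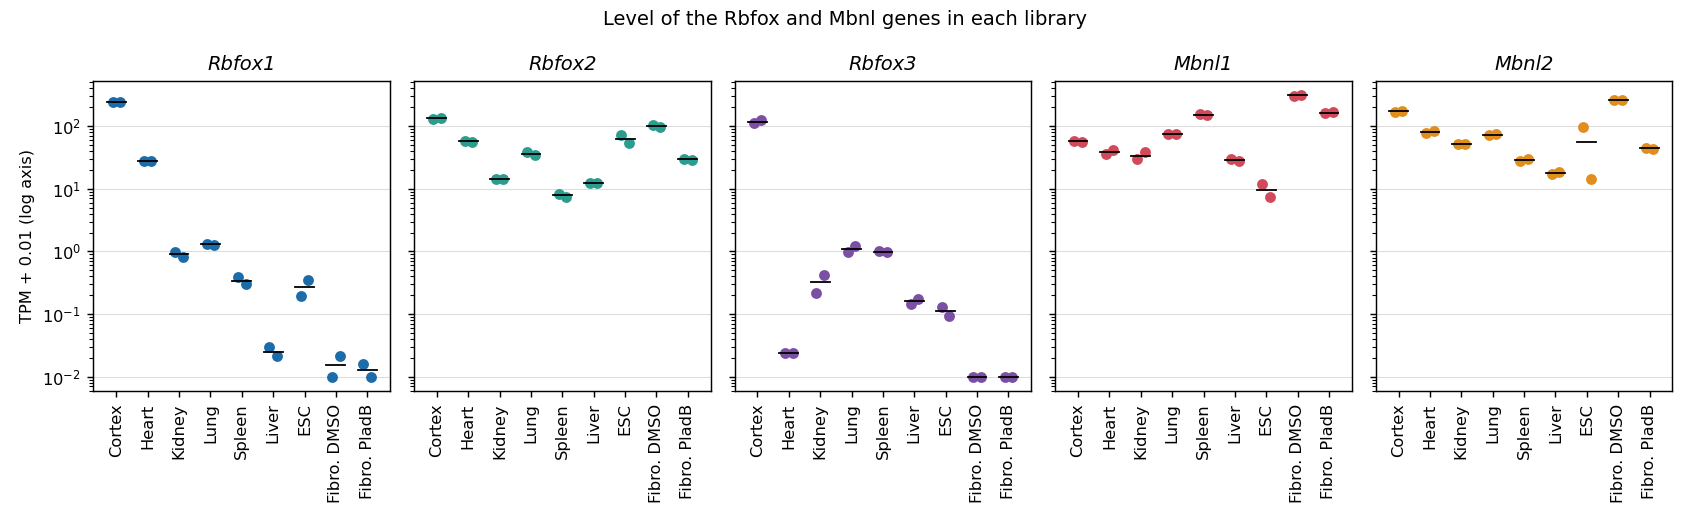
Level of each regulator in every library, as TPM + 0.01 on a logarithmic axis, by group (points are libraries, 2 per group). Rbfox1 and Rbfox3 fall from over 100 TPM in cortex to near or below 1 TPM in most other groups, Rbfox2, Mbnl1 and Mbnl2 are found in every group, and the ESC clones lie apart for Mbnl2.

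All 5 genes passed the limma F test across the 7 tissues (adjusted p = 1.27e-12 for Rbfox1, 2.03e-11 for Rbfox2, 7.77e-12 for Rbfox3, 6.76e-09 for Mbnl1 and 0.00300 for Mbnl2), as did 99.2% of the 22674 genes tested. Over the 14 tissue libraries, which are 7 pairs from shared tissues, log2 levels of Rbfox1 and Mbnl2 had a Pearson r of 0.809 and those of Rbfox1 and Rbfox2 of 0.751, whereas Rbfox2 and Mbnl1 had an r of -0.33. Among 18467 genes that reached 5 TPM in a tissue, the profiles most like that of Rbfox1 were Cdh19 (r = 0.985), Kcnd2 (0.984) and Mapk10 (0.981), and those most like Rbfox3 were Ptpn5 (0.990), mmu-mir-7056 (0.985) and Mag (0.983). Those most like Rbfox2 were Creld1 (0.970), mt-Tv (0.961) and Spg20 (0.955), those most like Mbnl1 were Plek (0.987), Vcam1 (0.982) and Rasgrp2 (0.981), and those most like Mbnl2 were Ift172 (0.958), Cpeb1 (0.943) and Eid2b (0.942). These r values describe libraries that share tissue and depth.

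The exons of these genes were then compared by percent spliced in (PSI), on a scale from 0 to 1. It is the share that includes the exon among transcripts that include it or skip it between the flanking exons of the event. PSI was calculated from junction reads divided by the effective length of each form, in events with at least 20 reads in both libraries of a group. The switch score is the largest difference between 2 tissue means, and an event was called when it was at least 0.1 and the quasi-binomial F test had a Benjamini-Hochberg adjusted p below 0.05. Of the regulators' events, 14 of 27 tested were called, against 8.43% of all 47963 events tested. Counting each exon once, by its most widely expressed event, 12 of 23 exons were called. Of these, 4 belong to Rbfox1, 3 to Rbfox2, 3 to Mbnl1 and 2 to Mbnl2, and 7 had a switch score of at least 0.5, a size reached by called events for 2.79% of all events. Those 7 exons were 36 to 1049 nt long and 2 of them were a multiple of 3 in length. All 11 exons that were not called had tissue means of 0.663 or more.

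A pair of short exons near the 3′ end of Rbfox1 showed opposite inclusion in cortex and heart. They are the 40-nt exon (chr16:7363865-7363904, plus strand), known as the brain form, and the 43-nt exon (chr16:7369801-7369843), known as the muscle form. Both lie between the same flanking exons and were each measured against the same skipping junction, so their PSI values do not add up to 1. The 40-nt exon had a PSI of 0.966 and 0.963 in the cortex libraries (2511 and 2621 reads) and of 0.315 and 0.272 in heart (68 and 80 reads). The 43-nt exon had 0.136 and 0.121 in cortex (71 and 79 reads) and 0.897 and 0.862 in heart (581 and 548 reads). The ranges of cortex and heart are far apart for both exons, with ΔPSI (cortex minus heart) of 0.671 for the 40-nt exon and heart above cortex by 0.751 for the 43-nt exon (adjusted p = 1.31e-05 and 6.67e-06). No other tissue had 20 reads in both libraries at either exon.

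Rbfox2 carries the corresponding pair (40-nt exon at chr15:77094451-77094490 and 43-nt exon at chr15:77091812-77091854, minus strand). These exons also lie between the same flanking exons and were each measured against the same skipping junction. The 43-nt exon was included in heart at 0.935 and 0.931 and in cortex at 0.0769 and 0.0903, with ESC at 0.179 and 0.418. Heart was thus far above both, the switch score was 0.850, the highest of all these exons (adjusted p = 8.11e-08), and cortex and ESC did not differ beyond the spread (ΔPSI = -0.21, adjusted p = 0.0735). Fibroblasts were close to cortex, with 0.0850 and 0.0914 under DMSO, and kidney, lung, spleen and liver had no value for this exon. The 40-nt exon had PSI values from 0.643 and 0.682 in heart over 0.731 and 0.780 in cortex to 0.967 and 0.942 in kidney and 1 and 0.943 in spleen. The ESC clones lay apart, at 0.781 and 0.934. Its switch score of 0.309, spleen over heart, did not pass the F test with them (adjusted p = 0.0861) and passed it without them (adjusted p = 2.44e-05) or, with all libraries kept, with the replicate number as a block (adjusted p = 0.00415). Among 21 pairs of tissues kidney exceeded cortex (adjusted p = 0.0342) and heart (adjusted p = 0.0211). In Rbfox1 the PSI of the brain form thus fell and that of the muscle form rose from cortex to heart. In Rbfox2 the PSI of the muscle form rose by 0.850 from cortex to heart, and that of the brain form differed by 0.0925 between them (adjusted p = 0.532). Because each PSI leaves out transcripts with the other exon, these values do not give the share of each form. Whether the forms were also exchanged in Rbfox2 was not tested.

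The other called exons of the Rbfox genes changed less. A 51-nt exon of Rbfox2 (chr15:77231387-77231437), far upstream in the gene, was included at 1 and 0.986 in lung, 0.886 and 0.90 in kidney, 0.863 and 0.850 in cortex, 0.794 and 0.761 in heart and 0.619 and 0.755 in ESC. Lung and ESC did not overlap, and the switch score between them was 0.306 (adjusted p = 0.00805), but without the first lung library the adjusted p was 0.0638, and without ESC the switch score was 0.216 (adjusted p = 0.00389). A 93-nt exon, whose skipping is known to remove part of the RNA-recognition motif, was called in both genes. In Rbfox1 (chr16:7292185-7292277) its PSI was 0.998 in both cortex libraries against 0.816 and 0.812 in heart (switch score 0.184, adjusted p = 1.33e-05). In Rbfox2 (chr15:77105577-77105669) it fell to 0.849 and 0.888 in heart from 0.996 in both ESC clones (switch score 0.127, adjusted p = 3.40e-04), with cortex at 0.957 and 0.971, and without ESC the switch score was 0.112 (adjusted p = 2.03e-06). In Rbfox2 heart had the lowest mean inclusion of this exon among 6 tissues, while in Rbfox1 the exon was tested in cortex and heart alone. The last called exon, of 81 nt in Rbfox1 (chr16:7330362-7330442), had a switch score of 0.129 between heart and kidney (adjusted p = 0.0178), with the kidney libraries at 1 and 0.714 over 21 and 24 reads. None of its pairs of tissues was called, and its adjusted p was 0.0569 to 0.204 without the second cortex library or without either heart library. The 7 exons of Rbfox3 were measurable in cortex alone, where every library value was 0.973 or more.

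Mbnl1 varied at both ends of its transcript. A 1049-nt exon near the start of the gene (chr3:60528756-60529804, plus strand) was included at 0.969 and 0.938 in cortex, 0.841 and 0.898 in heart, 0.814 and 0.759 in liver, 0.713 and 0.592 in kidney, 0.565 and 0.557 in spleen and 0.204 and 0.243 in lung. Lung stood below all other tissues, no library of another tissue overlapped it, and the switch score was 0.730 (adjusted p = 4.40e-08). Of 15 pairs of tissues 11 were called, and the 4 not called were all neighbours in this order. The event had no ESC value.

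Toward the 3′ end of Mbnl1, a 36-nt exon (chr3:60621423-60621458) and a 95-nt exon (chr3:60622146-60622240) were each measured in a pair of events that differ in a flanking exon. In the event expressed in more groups, the 36-nt exon was included at 0.923 and 0.868 in spleen, 0.796 and 0.758 in cortex, 0.543 and 0.556 in lung, 0.470 and 0.524 in kidney, 0.343 and 0.342 in heart and 0.173 and 0.110 in liver. Its switch score was 0.754 (adjusted p = 8.18e-08) and 12 of 15 pairs were called, while cortex with spleen (adjusted p = 0.0836), heart with kidney, and kidney with lung were not. In its second event, spliced to the 95-nt exon, it was at 0.867 and 0.888 in spleen, 0.738 and 0.784 in cortex, 0.514 and 0.607 in kidney, 0.315 and 0.461 in ESC and 0.202 and 0.207 in heart. There the switch score was 0.673, spleen over heart (adjusted p = 4.08e-09), and both spleen over cortex (adjusted p = 0.0144) and kidney over heart (adjusted p = 1.46e-05) were called. The 95-nt exon, in its more widely expressed event, was at 0.959 and 0.931 in spleen, 0.928 and 0.902 in cortex, 0.839 and 0.836 in heart, 0.794 and 0.781 in lung, 0.746 and 0.762 in kidney, and 0.543 and 0.620 in liver, with the ESC clones at 0.839 and 1. Liver lay below the other 6 tissues in every library, and the switch score was 0.363 (adjusted p = 2.06e-05). Of 21 pairs of tissues 10 were called, and liver with kidney was not (adjusted p = 0.221). Its second event, with the 36-nt exon upstream, gave another order, from 0.976 and 0.974 in cortex over 0.951 and 0.953 in heart, 0.902 and 0.988 in liver, 0.903 and 0.908 in spleen and 0.883 and 0.867 in kidney to 0.843 and 0.876 in lung, with a switch score of 0.116 (adjusted p = 0.0136).

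Mbnl2 had its widest differences at 2 exons in the same region of the transcript. The 54-nt exon (chr14:120395712-120395765, plus strand), whose counterpart in Mbnl1 is known to favour nuclear localisation of the protein, was included in ESC at 0.826 and 0.944 (909 and 180 reads). It reached 0.412 and 0.435 in cortex, 0.385 and 0.391 in kidney, and 0.316 and 0.348 in liver. In spleen (0.0901 and 0.113), lung (0.0983 and 0.103) and heart (0.0516 and 0.0517) it was largely skipped. The tissues formed 3 levels without overlap, namely ESC, then cortex with kidney and liver, then spleen with lung and heart, and the switch score was 0.833 (adjusted p = 2.79e-11). Within the middle level no pair was called (adjusted p = 0.243 to 1). Without the ESC clones the widest difference was cortex over heart, at 0.372 (adjusted p = 6.46e-29). Fibroblasts belonged with the lowest level, at 0.0601 and 0.0621 under DMSO.

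The 95-nt exon of Mbnl2 (chr14:120404638-120404732) followed a similar order. Its PSI was 0.800 and 0.944 in ESC, 0.664 and 0.582 in liver, 0.630 and 0.525 in kidney, 0.564 and 0.473 in cortex, 0.377 and 0.404 in lung, 0.316 and 0.432 in spleen and 0.140 and 0.123 in heart. Heart was below each of the other 6 tissues in a called pair, the switch score was 0.740 (adjusted p = 1.35e-07), and without ESC it was 0.491, liver over heart (adjusted p = 4.36e-22). A 619-nt exon near the start of Mbnl2 (chr14:120324794-120325412), which corresponds in position to the 1049-nt exon of Mbnl1, was included at means of 0.973 to 0.999 in all tissues and was not called.

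**Figure D2:**
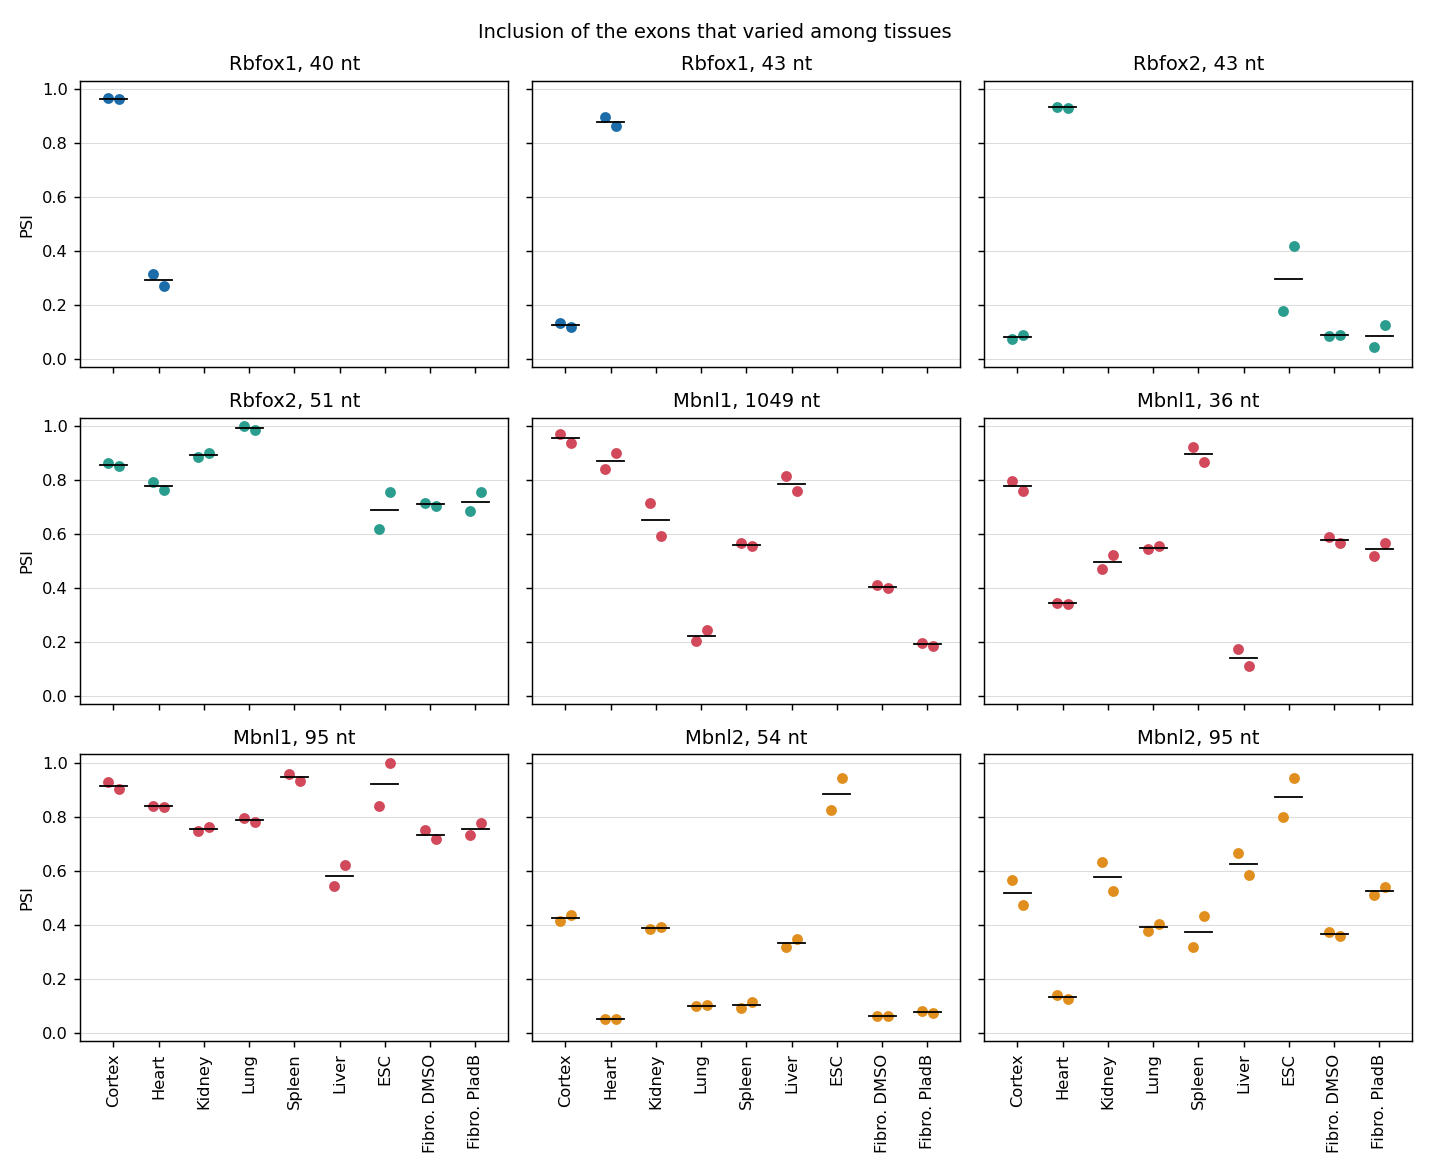
Percent spliced in (PSI, 0 to 1) of the 9 called exons with a switch score of at least 0.2, by group (points are libraries, bars are means, and groups without 20 reads in both libraries are empty). The Rbfox1 40-nt and 43-nt exons are exchanged between cortex and heart. Among the groups with a value, the Rbfox2 43-nt exon is high in heart alone. The Mbnl2 54-nt exon falls into 3 levels with ESC on top.

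The paper disturbed the spliceosome with pladienolide B to see whether masked splicing differences between alleles would appear. Here the levels and exons of these regulators were compared between treated and control cells. Among the 3 regulators expressed in fibroblasts, Mbnl2 had 258.0 and 260.3 TPM under DMSO and 45.2 and 43.8 TPM after the drug. Rbfox2 had 102.8 and 96.9 TPM under DMSO and 30.3 and 29.2 TPM after it. Mbnl1 had 304.8 and 312.6 TPM under DMSO and 162.2 and 165.3 TPM after it. The treated libraries were lower without overlap for each gene, with log2 differences of -2.54 ± 0.58 (SE) for Mbnl2, -1.74 ± 0.11 for Rbfox2 and -0.91 ± 0.18 for Mbnl1 (limma, adjusted p = 0.00250, 3.09e-08 and 7.36e-04, and 1.31e-11 for Mbnl2 without the ESC clones), and for Mbnl1 the direction turned when libraries were centred on their median. In the same comparison 45.4% of all genes tested were called lower and 6.48% higher.

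TPM are relative to the sum over all genes of a library, and the median of the 13431 genes with at least 1 TPM under DMSO changed by -1.20 on the log2 scale. Against these genes Mbnl2 lay at percentile 17.6 of the change, Rbfox2 at 36 and Mbnl1 at 57.3. Relative to the library median, whose shift was -1.43, Mbnl1 was called higher, by 0.51 (adjusted p = 0.00481), Rbfox2 was called lower, at -0.32 (adjusted p = 0.00710), and Mbnl2 was at -1.11 (adjusted p = 0.0740, or -1.03 and 3.34e-08 without ESC). On this scale 57.9% of all genes tested were called higher and 20.2% lower. Markers of fibroblasts summed to 1481 to 1538 TPM under DMSO and 1096 to 1147 TPM after pladienolide B, and those of smooth muscle to 3798 to 3810 and 4973 to 5238 TPM. The members of a list did not all follow its sum. The lowest smooth muscle marker was at 0.123 to 0.151 TPM under DMSO and 0.0728 to 0.0948 TPM after the drug. The lowest fibroblast marker was at 5.51 to 5.73 and 8.09 to 8.16 TPM. The part of these cell types in the results was not tested. Rbfox1 was at or below 0.0111 TPM in each fibroblast library and Rbfox3 was listed at 0.

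Of the 45 events of the regulators tested after the drug 4 were called, and of 22 exons counted once 3, against 8.7% of all events tested (8.51% with lower PSI after the drug and 0.191% with higher), so that the share of events was near that of all events. The 1049-nt exon of Mbnl1 fell from 0.410 and 0.399 to 0.196 and 0.187, a ΔPSI of -0.21 (adjusted p = 1.56e-96, over 4231 to 7332 reads per library). Its other events, which differ in the downstream exon, were not called in the quasi-binomial test. Their means went from 0.987 to 0.984 (adjusted p = 0.744) and from 0.988 to 0.981 (adjusted p = 0.569). The 619-nt exon of Mbnl2, which was included in nearly all transcripts in every tissue, fell from 0.982 and 0.987 to 0.870 and 0.855, a ΔPSI of -0.12 (adjusted p = 5.90e-34). The 95-nt exon of Mbnl2 rose from 0.372 and 0.358 to 0.509 and 0.540, a ΔPSI of 0.160 (adjusted p = 7.74e-10). Treated and control libraries did not overlap in the called events of these 3 exons. The fitted spread was wholly shared over all events in this comparison, so the spread between replicates of a single event did not enter its p.

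The fourth called event was a second measure of the 165-nt exon of Mbnl2, in which 1 DMSO library had a PSI of 0.721 over 74 reads and all others had 1, so that the conditions overlapped (ΔPSI = 0.140, adjusted p = 0.0117). Without that library the difference was 0, and without the second treated library the adjusted p was 0.0711. No exon of Rbfox2 was called among its 10 events. Its 43-nt exon was at 0.0850 and 0.0914 under DMSO and 0.0474 and 0.126 after the drug (adjusted p = 0.858), and its 40-nt exon went from a mean of 0.767 to 0.828 (adjusted p = 0.124). Over the 22 exons the median ΔPSI was -0.000359, beside -0.00524 over all events tested and -0.03 over the 2359 events with a PSI of 0.1 to 0.9 under DMSO. The 36-nt and 95-nt exons of Mbnl1 and the 54-nt exon of Mbnl2, which varied widely between tissues, had ΔPSI of -0.03, 0.0219 and 0.0150 (adjusted p = 0.380, 0.316 and 0.490).

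**Figure D3:**
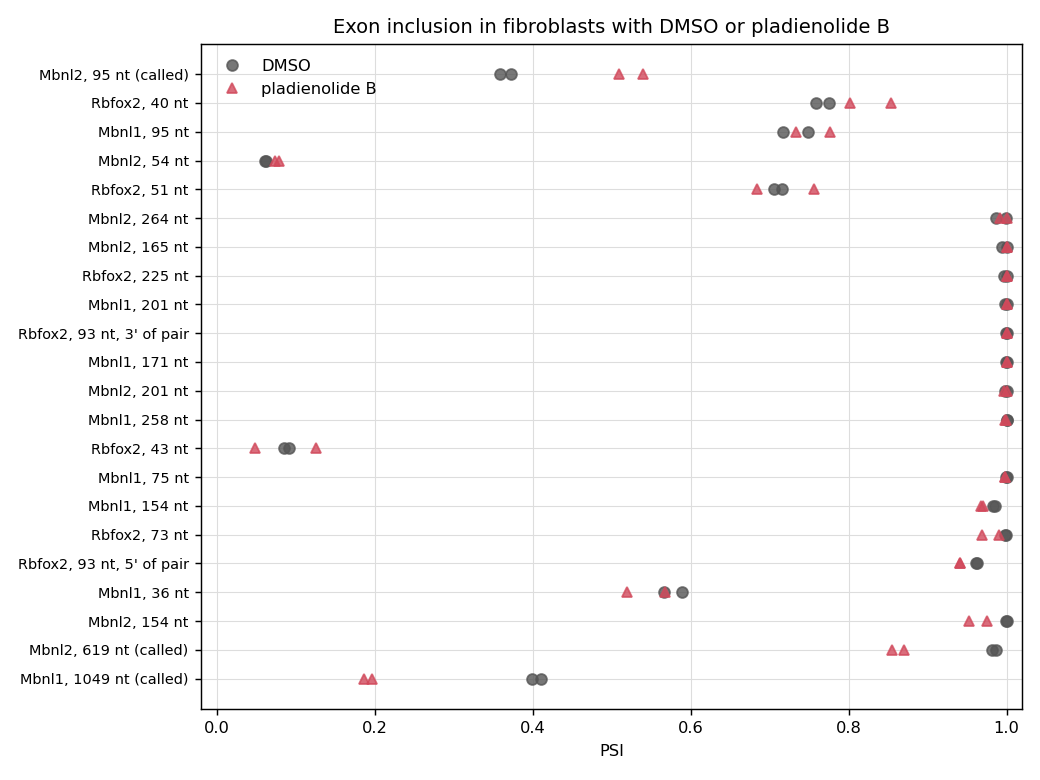
Percent spliced in (PSI) of 22 exons of Rbfox2, Mbnl1 and Mbnl2 in fibroblasts with DMSO and with pladienolide B (points are libraries, 2 per condition). The 1049-nt exon of Mbnl1 and the 619-nt exon of Mbnl2 shift to lower PSI and the 95-nt exon of Mbnl2 to higher, and the other 19 exons differ by -0.0356 to 0.0610.

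Allelic reads were used to ask whether the 2 parental copies, which share the same nucleus and so the same trans-acting factors, are spliced differently. With at least 20 reads per allele and library, and allelic PSI within 0.1 of that of all reads, 110 pairs of an event and a group were compared. None was called in the quasi-binomial test, against 2.38% of all such pairs over the 9 groups, and 7 had an unadjusted p below 0.05. By group, 26 pairs were compared in cortex (2.13% of all events called), 15 in heart (3.44%), 7 in lung (2.67%), 7 in kidney (2.99%), 2 in liver (2.65%), 2 in spleen (2.65%), 1 in ESC (0.239%), and in fibroblasts 29 under DMSO (3%) and 21 after pladienolide B (2.67%). With the library as a block, as both alleles come from the same RNA, none was called either, against 2.86% of all pairs. Counting each exon once left 80 pairs for 35 exons, of which 72 differed by less than 0.05 in PSI. In the 51 pairs with over 100 reads in each of the 4 values, the largest difference was 0.0598, at the 1049-nt exon of Mbnl1 in DMSO-treated fibroblasts, with BL6 at 0.510 and 0.451 and SPR at 0.413 and 0.428 (adjusted p = 0.250).

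Allelic values could be given for several exons that differed widely between tissues. The 43-nt exon of Rbfox1 in heart was included at 0.852 and 0.804 on BL6 and 0.839 and 0.795 on SPR (adjusted p = 0.919). The 54-nt exon of Mbnl2 in cortex was at 0.494 and 0.442 on BL6 and 0.450 and 0.510 on SPR. The 95-nt exon of Mbnl2 was at 0.106 and 0.0721 on BL6 and 0.0885 and 0.0845 on SPR in heart. In fibroblasts it was at 0.296 and 0.324 against 0.312 and 0.293 under DMSO, and at 0.518 and 0.479 against 0.420 and 0.492 after pladienolide B, so that both alleles lay higher with the drug. The 43-nt exon of Rbfox2 had too few allelic reads.

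Counting each exon once, differences of 0.1 or more were found in 4 of the 80 pairs, and none passed the test. The 40-nt exon of Rbfox1 in heart was at 0.425 and 0.407 on BL6 and 0.279 and 0.0267 on SPR (adjusted p = 0.428, 25 to 47 reads per value), and the 133-nt exon of Rbfox2 in cortex at 0.677 and 0.933 against 1 and 1 (adjusted p = 0.349). After pladienolide B the 51-nt exon of Rbfox2 was at 0.505 and 0.727 on BL6 and 0.777 and 0.854 on SPR (adjusted p = 0.264). Its allelic difference was 0.0118 under DMSO, and the change of the difference with the drug had an adjusted p of 0.999 in the quasi-binomial test for interaction, unadjusted p = 0.0306. None of 15 events was called in that test, against 0.0824% of all events, and 1 had an unadjusted p below 0.05. The 36-nt exon of Mbnl1 after pladienolide B differed by -0.10 (adjusted p = 0.734). Second events of an exon gave 3 more such differences, also not called. They were the 36-nt exon of Mbnl1 under DMSO, at 0.405 and 0.213 on BL6 and 0.443 and 0.602 on SPR (adjusted p = 0.590), the 264-nt exon of Mbnl2 in kidney, at 0.533 and 1 against 0.941 and 1 (adjusted p = 0.405), and the 165-nt exon of Mbnl2 under DMSO, at 1 and 0.667 against 1 and 1 (adjusted p = 0.193). The smallest p of all 110 pairs, 0.00528, belonged to a 139-nt exon of Rbfox3 in cortex (chr11:118811278-118811416), included at 0.996 and 0.997 on BL6 and 0.974 and 0.979 on SPR. This difference of 0.020 had an adjusted p of 0.0185 with the library as a block, and is under the limit of 0.1.

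**Figure D4:**
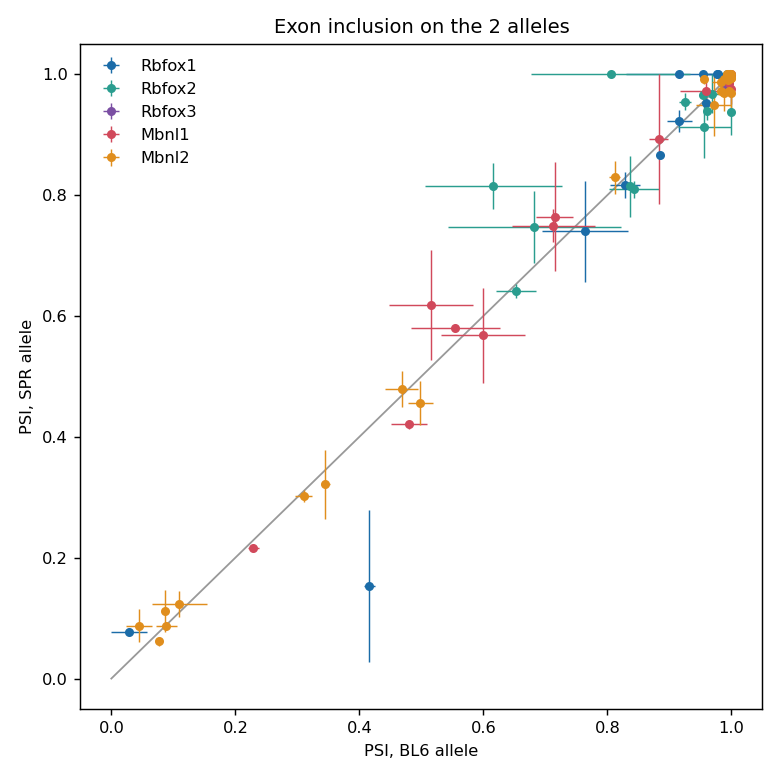
Percent spliced in (PSI) of the BL6 allele (horizontal axis) against the SPR allele (vertical axis) for 80 pairs of an exon and a group (points are means of 2 libraries, bars the range between them, and the line marks equal values). Most points lie on the line, 72 of them within 0.05, and the 4 that are 0.1 or more away have wide bars or few reads.

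The share of reads that came from each allele also described how much each parental copy contributed to the mRNA. At the deepest event of each gene the BL6 share was 48.5% and 50.2% for Rbfox1 in cortex, 49.9% and 50.8% for Rbfox1 in heart and 50.8% and 51.4% for Rbfox3 in cortex. Mbnl1 in fibroblasts had a BL6 share of 45.0% and 46.7% under DMSO and 37.1% and 39.1% after pladienolide B, at different events of the same exon. Rbfox2 in liver had the lowest share, with 24.8% and 37.5% of 125 and 176 reads, where 5% of all genes in liver were below 29.7%. These shares are values at single events and were not tested.

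The reads of Mbnl2 in ESC came from both alleles in 1 clone and almost wholly from BL6 in the other. The first clone had 440 BL6 and 332 SPR reads at the 619-nt exon and the second 102 and 1, a BL6 share of 57% against 99.0%. The clone with reads of both alleles also had the higher level, 97.4 against 14.3 TPM, a log2 ratio of 2.76 that 1.16% of 10780 genes with at least 10 TPM reached or exceeded in size. Mbnl2 lay in a run of 17 genes next to each other, from Tgds to Tmtc4 over 4.80 Mb of chromosome 14, that all had over 90% BL6 reads in the second clone. Summed over the run, BL6 had 97.2% of 11107 reads in the second clone and 51% of 19261 in the first, and the run reached the last measured gene of the chromosome. Over the 285 measured genes before it BL6 had 48.4% and 52.7% in the second and first clone, but the last 27 of them, from Akap11 to Ndfip2 over 26.8 Mb, had 3.44% to 35.4% in the second clone and 24.5% to 72.8% in the first (21.4% and 52.6% of the summed reads), so that in the second clone the run with mostly BL6 reads followed a stretch with mostly SPR reads. The 15 genes of the run with at least 10 TPM were all higher in the first clone, with a median log2 ratio of 1.34 and a range of 0.25 to 2.76 in which Mbnl2 was the highest. The 2 clones are 1 sample each, so these values have no replicate, and the cause was not tested.

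**Figure D5:**
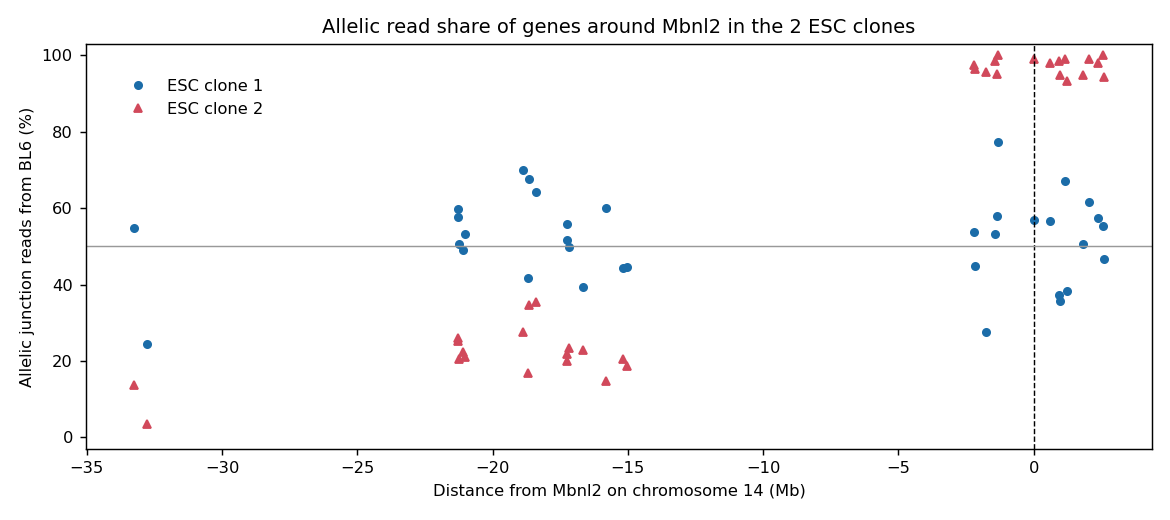
Percent of allelic junction reads from BL6 for genes within 40 Mb of Mbnl2 with at least 40 such reads in both ESC clones, by distance from it on chromosome 14 in Mb (points are genes, the dashed line marks Mbnl2 and the horizontal line equal shares). Near Mbnl2 all genes of clone 2 lie above 90% and those of clone 1 spread around equal shares, and further away clone 2 lies below 40%.

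Other regulators of splicing, 36 genes in all, gave the setting for these levels. All were called across tissues by limma, as were 99.2% of all genes tested, with 19 highest in cortex, 7 in ESC, 4 in spleen and 3 in heart. Their median range across tissues was 6.67 on the log2 scale beside 4.16 for all genes tested. Ptbp1, a repressor of neuronal exons, had a mean of 348 TPM in ESC and 23.7 TPM in cortex, and Rbm20 and Rbm24, which regulate exons of muscle genes, had 149 and 144 TPM in heart. After pladienolide B 19 were called lower and 1 higher, beside 45.4% and 6.48% of all genes tested, the latter being Nova2 with means of 0.127 TPM under DMSO and 0.254 TPM after it. Of the 19 with at least 1 TPM under DMSO, 14 were called lower, with a median log2 change of -1.11 over the 19, beside the -1.20 of all genes at that level. Relative to the library median 21 of the 36 were called higher and 5 lower, beside 57.9% and 20.2% of all genes tested.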

How the data were processed

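Per the paper's methods the authors sequenced stranded mRNA libraries, trimmed the longer reads of some tissues to the length of the others, aligned reads with HISAT2 2.0.1 to mm10 and to a SPRET/EiJ genome derived from it, gave each read to the genome with fewer mismatches, and counted junction reads on Ensembl annotation with rMATS. The deposited junction read counts per event are not normalized and list both replicates in 1 cell, and replicates were taken by their position in the list. The deposited effective lengths of both forms are a score written by rMATS and were used to calculate PSI. The deposited columns of the authors' own comparisons (inclusion differences, p-values and FDR) were not used. The deposited TPM were made by the authors with featureCounts on all reads, and the retained intron table holds no row of these genes. Gene positions came from RefSeq (GRCm38.p6), and no genome sequence was used here.

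Events on autosomes with at least 20 reads in every library compared entered a quasi-binomial logistic fit in which inclusion reads were set against skipping reads. Dispersions were kept at or above 1 and moderated with limma 3.58.1 (R 4.3.3) along a trend with depth (spline, 4 df), followed by an F test and Benjamini-Hochberg adjustment over all events. A call needed an adjusted p below 0.05 and a PSI difference or switch score of at least 0.1. Allelic events also had to lie within 0.1 of the PSI of all reads. TPM were tested by limma with trend on log2(TPM + 0.1) over 18 libraries and 9 groups, in genes with a group mean of at least 1 TPM. Fits were tested on simulated data. Figures used Python 3.11.15 and matplotlib 3.10.9. Count tests of edgeR on junction reads were planned as alternatives and not run, since the counts are stored as lists.

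Both alleles of a library come from the same RNA, and their replicate differences correlated with r of 0.0393 to 0.459 over groups. Assignment of alleles was checked on imprinted genes, of which 23 of 24 maternal and 22 of 22 paternal gene and group pairs leaned to the parent they are expressed from.

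Exons were described singly when called across tissues with a switch score of at least 0.2, after pladienolide B or between alleles, each by its event expressed in most groups. The other called exons were described after their values were seen. For each gene the 3 genes with the highest r over 14 tissue libraries were named. The genes, lists, tests and this form of the model were chosen with earlier results of these data known.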

Additional observations from a re-analysis of the deposited data

How the results depend on the processing

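Of the counts of called events and genes, 63 stayed within 1.5 times their value under the alternatives and 3 moved, and of single exons and genes 350 kept their direction and side of the threshold, 4 fell below it and 2 reversed. With a limit of 0.2 on the PSI difference, 1 event in place of 4 was called after pladienolide B, since the other 3 differ by less. Without the limit on allelic against all reads, 1 event in place of 0 was called between alleles, a 154-nt exon of Mbnl1 after pladienolide B (-0.23, adjusted p = 0.00741), whose allelic PSI lay 0.126 below that of all reads. With log2 TPM centred on the library median, Mbnl1 after pladienolide B was at 0.51, and with the ESC clones left out as well at 0.60, in place of -0.91, and in the latter fit 5 genes in place of 3 were called, which include Rbfox1 and Rbfox3 at levels near 0 TPM. Leaving out the ESC clones was chosen after seeing the data. Leaving out each library in turn gave 12 to 15 called events across tissues, 3 to 4 after pladienolide B, 5 to 5 genes across tissues and 3 to 3 after pladienolide B. For alleles it gave 0 to 0, which carries no information because nothing was called with both.

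The organs came from the same animals, but the labels do not tie replicate numbers to animals. For PSI, deviations of same-numbered libraries correlated with r of -0.09 to 0.0825 between tissues and 0.0250 between fibroblast conditions. For TPM, r was -0.12 to 0.286 between tissues and -0.12 between fibroblast conditions. These values cannot decide whether equal numbers stand for the same animal, since an effect of the animal may be small beside the other spread. With the replicate block 15 events were called across tissues, 4 after pladienolide B and 0 between alleles, and 5 and 3 genes. The added event was the 40-nt exon of Rbfox2 (adjusted p = 0.00415), and the block changed no other call.

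Allelic reads limited the comparison of parental copies, since the 43-nt exon of Rbfox2 and most exons in spleen, liver and ESC had too few, and 9 of 119 pairs with 20 reads missed the limit against all reads, 5 of them the 95-nt exon of Mbnl2. The edgeR alternatives were not run.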

Other observations

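Among the other regulators of splicing expressed in fibroblasts, the decreases after pladienolide B on the log2(TPM + 0.1) scale included Ptbp3 at -3.06, Tra2b at -2.17, Celf1 at -2.11 and Ptbp1 at -1.11, beside -2.54 for Mbnl2 and -1.74 for Rbfox2. These 4 genes were chosen after their values were seen. Mbnl3, the remaining member of the Mbnl family, was highest in ESC with a mean of 2.19 TPM, well below Mbnl1 and Mbnl2 in the same libraries. Esrp2, a regulator of epithelial exons, was highest in liver with a mean of 54.2 TPM.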
